A study of Rattus norvegicus and Mus musculus with 39 samples.

Results

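Peripubertal rat testis was compared between animals that received mono(2-ethylhexyl) phthalate (MEHP), 7 libraries, and animals that received corn oil, 7 libraries. These are 14 of the 39 libraries of the study, chosen by their labels and not by any measured value. MEHP is the monoester that the body makes from a phthalate plasticizer. It was given by oral gavage at 700 mg/kg as a mixture with corn oil, the controls received corn oil alone, and the labels give day 2 as the time. The other rat groups used here are adult rats given MEHP (5 libraries) and adult rats given corn oil (7 libraries), and peripubertal mice given MEHP (6 libraries) or corn oil (7 libraries) are mentioned where their values are set beside the rat ones. The labels give no strain and no exact age. Nor do they say whether the libraries of a group stem from separate animals, so the p-values below speak of the spread among libraries. The authors fitted that spread as a single value per gene over all rat groups together, so the adult libraries also enter it.

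The seminiferous tubule is built by Sertoli cells, epithelial cells that hold the germ cells, seal the tubule with junctions and clear dying germ cells. Leydig cells between the tubules make testosterone. In young rodents the Sertoli cell is known as the target of phthalate monoesters: its contacts with germ cells loosen, its intermediate filaments collapse and germ cells are shed or die. Macrophages and other cells of the interstitium are known to respond to such injury.

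Gene expression had been measured by tag sequencing of whole testis. The files used here hold fitted terms per gene, not values per library, so no value per animal and no standard deviation can be given. Each effect is a log2 fold change of MEHP over corn oil, obtained as the sum of the adult treatment term and the age by treatment term, and its standard error (SE) follows from the SEs of both. Beside it stand implied levels, the mean normalized counts per group that the overall mean of a gene and its fitted terms lead to. They are not measured group means, and the depth of each library is unknown. Of 21654 rat genes listed, 21351 had an estimate, and the 13987 with a mean normalized count over all rat libraries (base mean) of at least 10 are described here.

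MEHP-treated peripubertal testes had 493 genes at higher and 297 at lower expression than corn-oil testes, at a Benjamini-Hochberg adjusted p under 0.05 in a two-sided Wald test. This is 5.65% of the 13987 genes, 3.52% higher and 2.12% lower. When a t distribution (22 degrees of freedom) replaced the normal one, 189 were higher (1.35%) and 49 lower (0.35%), which is 1.7% in all. The higher and lower genes differed in kind. The middle of the higher genes was a log2 fold change of 0.45 at a base mean of 140.3, and 43 of them reached 1. The middle of the lower genes was −0.23 at a base mean of 603, and 2 of them reached −1. The median over all 13987 genes was 0.0042.

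**Figure D1:**
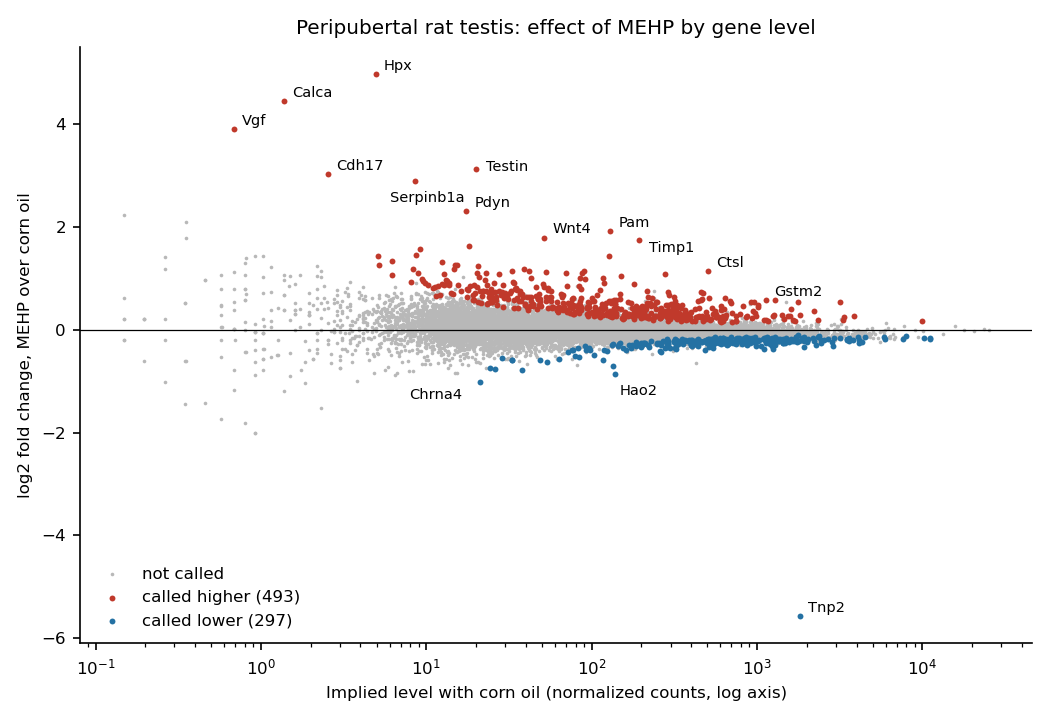
Log2 fold change of MEHP over corn oil in peripubertal rat testis (vertical axis) against the implied corn-oil level in normalized counts (horizontal log axis). Each point is a gene. The 493 genes called higher spread upwards at low and middle levels, whereas most of the 297 called lower lie just under 0 at middle and high levels. Of the 297, 16 lie at −0.5 or below, among them Tnp2, Chrna4 and Hao2.

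Precision followed expression level. The median SE was 0.19 for 3862 genes with base means of 10 to 50, 0.10 for 4582 genes of 50 to 200, 0.07 for 4338 genes of 200 to 1000, and 0.07 for 1205 genes above 1000. The smallest called changes were 0.39 in the least abundant of these bins and 0.11 in the most abundant. In the most abundant bin, 2.49% of genes were higher and 7.80% lower, and in the least abundant bin 2.72% were higher and 0.26% lower. A rough split of each variance put a median of 54.2% of it on counting (percentiles 10 and 90 at 17.5% and 86.9%). This split assumes equal depth of the libraries, and it predicted adult SEs at a median of 0.94 times the deposited ones.

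The largest rise was in hemopexin. Hpx, a plasma protein that binds free heme, stood at an implied 156 normalized counts with MEHP, against 4.95 with corn oil (log2 fold change 4.98 ± 0.62 SE, adjusted p = 3.83e-12, Wald test). Testin, a relative of cathepsin L that rat Sertoli cells secrete at their junctions with germ cells, stood at 174 with MEHP and 19.9 with corn oil (3.13 ± 0.36). Serpinb1a, an inhibitor of neutrophil serine proteases, stood at 63.7 with MEHP and 8.58 with corn oil (2.89 ± 0.42). Timp1, a metalloproteinase inhibitor, stood at 652 with MEHP and 194 with corn oil (1.75 ± 0.31). Cdh17, a cadherin, reached 20.7 with MEHP, against 2.53 with corn oil (3.03 ± 0.38). Among the genes with the 15 largest rises were also the intermediate filament gene Nes (1.63 ± 0.39), the actin-binding gene Tagln2 (1.44 ± 0.26), the signalling ligand Wnt4 (1.80 ± 0.37), the osteopontin gene Spp1 (1.43 ± 0.34), Gask1b (1.57 ± 0.28) and Prrt1 (1.45 ± 0.30). All 15 were also called with the t distribution. Gask1b, with a base mean of 14.8, was at an implied 9.11 in peripubertal and 7.96 in adult rats with corn oil. It passed the filter on low values only through MEHP-treated testes, so its place among these 15 follows in part from that filter.

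**Figure D2:**
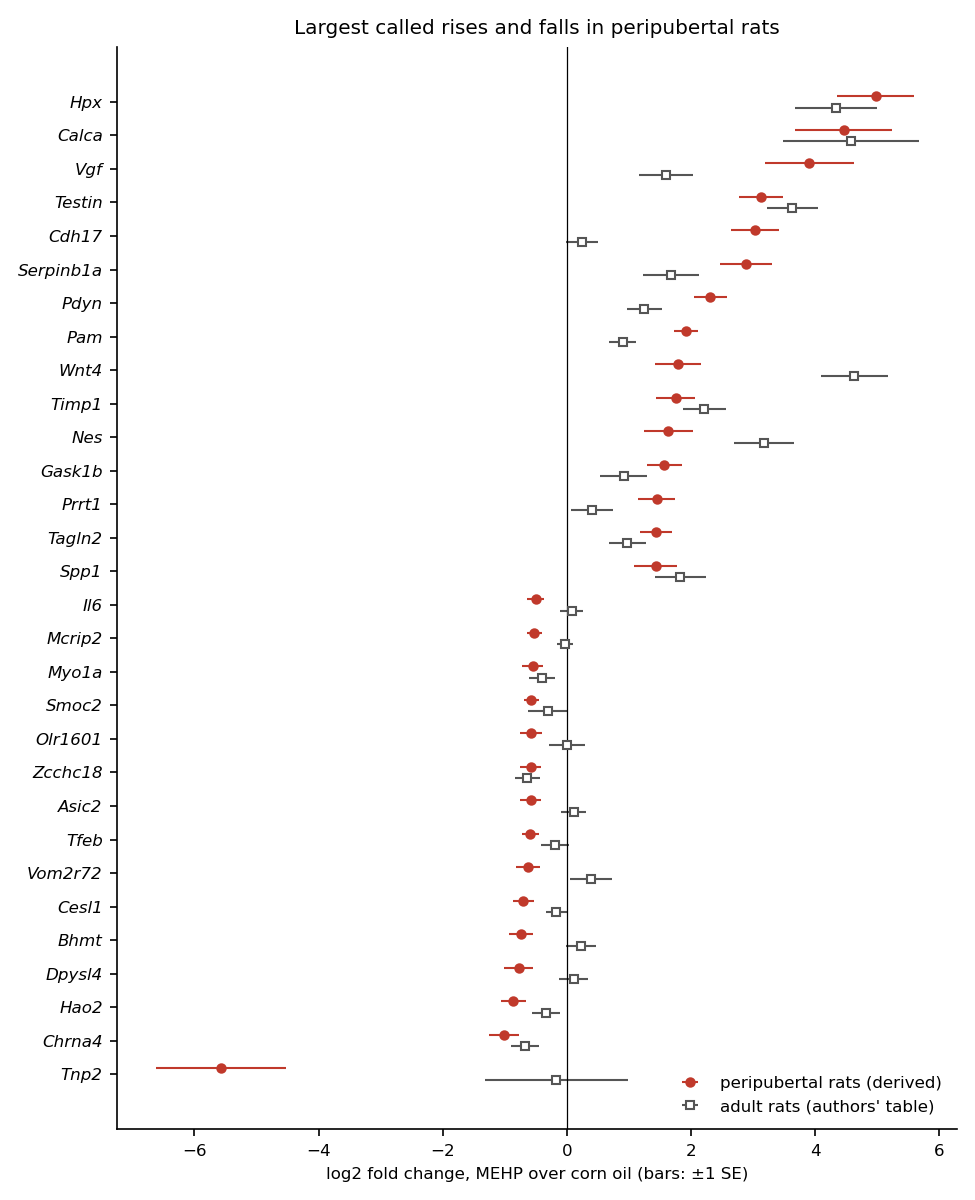
Log2 fold change of MEHP over corn oil with ±1 SE for the 15 largest called rises and 15 largest called falls in peripubertal rats (filled circles), with the authors' deposited adult value of the same gene below each (open squares). Hpx, Calca, Testin and Timp1 lie close to their adult values, Cdh17 lies far above its adult value, and Wnt4 lies below its adult value.

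Some genes for secreted peptides and for the enzymes that mature them were also among the called rises. A peptide hormone or neuropeptide is made as a larger precursor, cut by convertases, trimmed by carboxypeptidase E and often amidated at its end by peptidylglycine alpha-amidating monooxygenase. Granule proteins accompany this in nerve and endocrine cells. Of 14 members of a neuropeptide and secretory granule list with base means of at least 10, 4 were higher and 0 lower (28.6% higher, against 3.52% over all genes), and the same number was called with the t distribution. These were Vgf, Calca, Pdyn and Cpe, while Pam is not in the list. The median of the list was 0.02. At base means of at least 50 it kept 3 members, of which 0 were called.

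The promoters of 5 genes of this route are shown because their rises were large and because cyclic AMP response elements are known in promoters of several neuropeptide genes. The letters are RefSeq's, on the GRCr8 assembly, from 250 bases before to 50 bases after the annotated start, 5′ to 3′ on the strand of the gene. Capitals mark every TGACG, the core of that element, and its reverse complement, on either strand, and where 2 of them overlap they spell the whole element TGACGTCA. The Vgf promoter is chr12:25276971-25277270 on the minus strand, Calca chr1:178317480-178317779 on the minus strand, Pdyn chr3:137366454-137366753 on the minus strand, Pam chr9:105570118-105570417 on the plus strand and Cpe chr16:29796457-29796756 on the plus strand.
Vgf: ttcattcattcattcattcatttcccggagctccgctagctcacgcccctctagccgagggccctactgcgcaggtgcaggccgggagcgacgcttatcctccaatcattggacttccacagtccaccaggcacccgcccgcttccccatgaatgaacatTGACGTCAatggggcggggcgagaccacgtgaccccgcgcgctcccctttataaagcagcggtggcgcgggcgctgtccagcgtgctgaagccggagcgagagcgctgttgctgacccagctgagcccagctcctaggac
Calca: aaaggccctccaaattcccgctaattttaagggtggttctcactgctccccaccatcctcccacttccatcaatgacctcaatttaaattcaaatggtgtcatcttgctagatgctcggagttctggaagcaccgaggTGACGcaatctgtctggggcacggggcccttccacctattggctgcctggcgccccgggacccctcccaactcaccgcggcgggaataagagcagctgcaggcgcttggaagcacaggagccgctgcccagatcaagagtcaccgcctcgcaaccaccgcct
Pdyn: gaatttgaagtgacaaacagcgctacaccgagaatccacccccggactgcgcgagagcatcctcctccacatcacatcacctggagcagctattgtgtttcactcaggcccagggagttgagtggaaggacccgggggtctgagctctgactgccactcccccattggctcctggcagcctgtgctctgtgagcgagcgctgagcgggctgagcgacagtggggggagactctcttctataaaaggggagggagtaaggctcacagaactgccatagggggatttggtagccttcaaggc
Pam: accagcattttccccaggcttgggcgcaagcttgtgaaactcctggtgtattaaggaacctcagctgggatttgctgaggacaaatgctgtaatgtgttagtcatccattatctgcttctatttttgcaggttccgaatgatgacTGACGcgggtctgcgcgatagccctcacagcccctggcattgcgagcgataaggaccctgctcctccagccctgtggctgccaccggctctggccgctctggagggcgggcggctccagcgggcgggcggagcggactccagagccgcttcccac
Cpe: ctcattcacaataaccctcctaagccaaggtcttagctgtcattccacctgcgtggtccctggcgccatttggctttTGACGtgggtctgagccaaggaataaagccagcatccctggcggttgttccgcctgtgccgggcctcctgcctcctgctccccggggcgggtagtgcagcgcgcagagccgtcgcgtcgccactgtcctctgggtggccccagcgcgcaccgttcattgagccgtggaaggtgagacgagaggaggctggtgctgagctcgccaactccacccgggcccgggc
The whole element occurs in the Vgf promoter, starting 90 bases before the annotated start, and in 1.83% of 33469 promoters of the same length. TGACG occurs in the promoters of Vgf, Calca, Pam and Cpe, in none of the letters shown for Pdyn, and in 21.2% of the 33469. Of the 15 genes with the largest rises, 13 matched a promoter, of which 6 held TGACG and 1 held the whole element. A match describes letters and is not evidence of binding.

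The precursors came first in size. Calca, which encodes calcitonin and calcitonin gene-related peptide, stood at an implied 30.4 with MEHP and 1.38 with corn oil (4.46 ± 0.78, adjusted p = 7.72e-06). Vgf, a granule protein cut into several bioactive peptides, stood at 10.3 with MEHP and 0.687 with corn oil (3.91 ± 0.72). For these 2 genes the corn-oil level is under 3 counts, so the size of the fold change depends on a level near 0. Calca, with a base mean of 10.1, passed the filter on low values only through MEHP-treated testes, so its place among the 4 called members follows in part from that filter. Pdyn, the precursor of the opioid peptide dynorphin and known from rat Sertoli cells, stood at 86.7 with MEHP and 17.4 with corn oil (2.31 ± 0.26, adjusted p = 6.18e-15). Other precursors were not called. The enkephalin precursor Penk had a log2 fold change of 0.01 ± 0.07, the opiomelanocortin precursor Pomc −0.24 ± 0.08 and the granule proteins Chga and Scg2 0.15 ± 0.19 and −0.12 ± 0.14.

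The processing enzymes followed. Pam, the amidating enzyme, had the smallest p of the named genes and stood at an implied 493 with MEHP and 130 with corn oil (1.92 ± 0.19, adjusted p = 3.66e-20). Cpe stood at 33.8 with MEHP and 14.8 with corn oil (1.19 ± 0.27). The convertase gene Pcsk1 was at 4.61 with MEHP and 1.51 with corn oil (1.61 ± 0.56, adjusted p = 0.0845), and its base mean was under 10. Calcb, the second gene for calcitonin gene-related peptide in the rat, was at 2.01 with MEHP and 0.132 with corn oil, also under the base mean of 10 (adjusted p = 0.0953). On the receptor side, Ramp1, a subunit of the receptor for this peptide, rose by 1.10 ± 0.21, to 149.97 with MEHP against 69.8 with corn oil. Its partner Calcrl was at 3.66 with MEHP and 3.94 with corn oil. Pcsk1, Calcb, Ramp1 and Calcrl were named after their values were seen. Resp18, which encodes an endoplasmic reticulum protein of neuroendocrine cells, went the other way, at 2326 with MEHP and 2895 with corn oil (−0.32 ± 0.07).

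**Figure D3:**
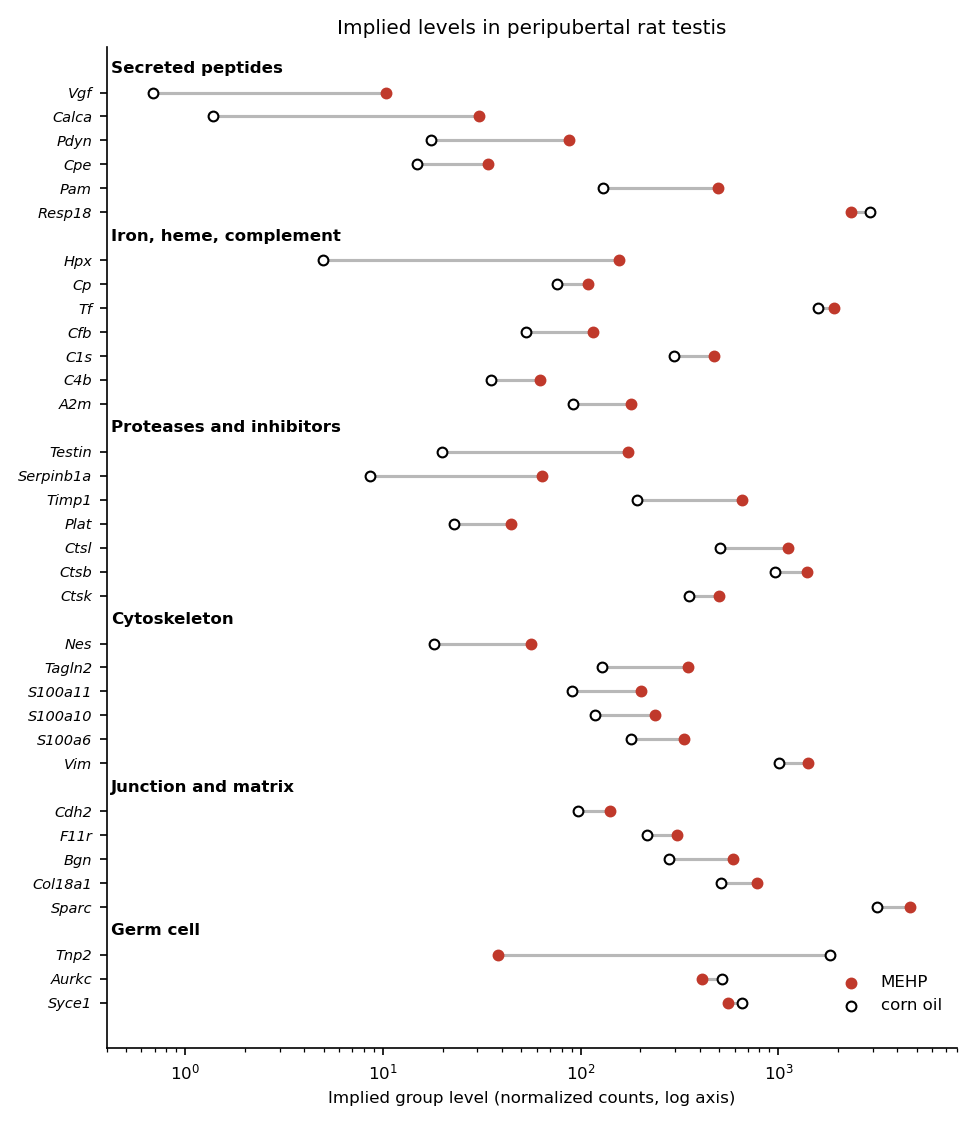
Implied group levels in normalized counts (log axis) of 34 called genes in peripubertal rat testis, MEHP as filled and corn oil as open circles, grouped by role. Vgf, Calca and Hpx start under 5 with corn oil, while Sparc, Ctsb and Tf start near or above 1000 and move little on this axis.

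Sertoli cell genes rose in part. Of 19 markers with base means of at least 10, 9 were higher and 0 lower (5 higher with the t distribution). This is 47.4% higher, against 3.52% over all genes. The list median was 0.19, against 0.0042 over all genes. The called markers were Testin, Ctsl, Dhh (0.53 ± 0.11), which encodes the ligand that Sertoli cells send to Leydig and myoid cells, Vim (0.48 ± 0.11), Cldn11 (0.29 ± 0.07), Sox9 (0.27 ± 0.08), Tf (0.27 ± 0.08), Aard (0.19 ± 0.06) and Clu (0.18 ± 0.05). Several markers of Sertoli identity and hormone response were not called. Wt1 was at 0.14 ± 0.07, Gata4 at 0.17 ± 0.08, the follicle-stimulating hormone receptor Fshr at −0.01 ± 0.23 and Amh at −0.16 ± 0.14. The summed implied level of the 19 markers was 28145 with MEHP and 24015 with corn oil. In whole testis, more cells of a type and more RNA per cell cannot be told apart, and the same holds for fewer cells and less RNA.

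Lysosomal proteases and their inhibitors were among the abundant genes that rose. Of 27 members, 11 were higher (40.7%, against 3.52% over all genes) and 0 lower (9 higher with the t distribution), and the list median was 0.28. Ctsl, a lysosomal protease that Sertoli cells also secrete, stood at 1123 with MEHP and 507 with corn oil (1.15 ± 0.14, adjusted p = 3.89e-13). The cathepsin genes Ctsb (0.54 ± 0.11) and Ctsk (0.49 ± 0.08), the peptidase Tpp1 (0.53 ± 0.10), the sphingolipid activator precursor Psap (0.28 ± 0.06) and the membrane protein Lamp2 (0.32 ± 0.08) also rose. Gm2a, not in the list, which encodes the GM2 ganglioside activator, rose by 0.61 ± 0.10. The inhibitor genes Serping1 (0.70 ± 0.17) and Cst3 (0.18 ± 0.06) rose, while Lamp1 (−0.07 ± 0.04) and Hexa (−0.08 ± 0.06) were not called. Tfeb, a transcription factor known to drive lysosomal genes, was lower, at 32.4 with MEHP and 48.8 with corn oil (−0.59 ± 0.14, adjusted p = 0.00171). The Sertoli marker list shares Ctsl and Testin with these genes and had 9 of 19 members higher, the macrophage list shares Ctss and had 3 of 17 higher, and their part in these rises was not tested.

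Heme and iron genes and complement genes formed the next group. Hpx, counted in both lists, stood at an implied 4.95 in peripubertal and 13.2 in adult rats with corn oil. With MEHP it stood at 156 and 267, so its base mean of 98.3 came mostly from MEHP-treated testes. Its place among the called members of both lists follows in part from the filter. Of 24 iron and heme genes 7 were higher (29.2%, against 3.52% over all genes) and 0 lower (1 with the t distribution, Hpx). Besides Hpx, Tf and the hemoglobin receptor gene Cd163 these were the copper oxidase that loads iron onto transferrin, Cp (0.53 ± 0.15), the ferritin subunit Fth1 (0.20 ± 0.06), the iron transporter Slc11a2 (0.32 ± 0.10) and the biliverdin reductase Blvra (0.48 ± 0.12). The heme oxygenase Hmox1 was at −0.03 ± 0.08, haptoglobin Hp at 0.09 ± 0.17, and Lrp1, the receptor that takes up hemopexin with its heme and named after its value was seen, at 0.33 ± 0.11 (adjusted p = 0.0701), none of them called. Globin transcripts were not called either: Hba-a2 was at 0.09 ± 0.31 and Hbb-b1 at 0.12 ± 0.30. These SEs leave room for changes of either direction, and a part of blood in the heme and iron rises was not tested.

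Of 19 complement and acute phase genes 9 were higher (47.4%, against 3.52% over all genes) and 0 lower (4 with the t distribution), with a median of 0.48. Besides Hpx they included the classical pathway proteases C1r (0.48 ± 0.14) and C1s (0.69 ± 0.18), the component C4b (0.82 ± 0.22), the alternative pathway genes Cfb (1.13 ± 0.33) and Cfd (0.49 ± 0.15), the protease inhibitor A2m (0.98 ± 0.15) and Cd59. Serping1, counted with the proteases above, encodes the inhibitor of C1r and C1s. A2m stood at an implied 180 with MEHP and 91.0 with corn oil. Cd59, a membrane inhibitor of the last complement step, rose to 2568 with MEHP against 1769 with corn oil (0.54 ± 0.08, adjusted p = 2e-08). The 3 genes of the recognition protein C1q were not called, with C1qa at 0.36 ± 0.18, C1qb at 0.62 ± 0.22 and C1qc at 0.40 ± 0.20.

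Macrophage markers moved in part. Of 17, 3 were higher (17.6%, against 3.52% over all genes) and 0 lower (2 with the t distribution), and 15 of the 17 had a positive effect. Lyz2, the lysozyme gene, stood at 187 with MEHP and 87.0 with corn oil (1.10 ± 0.24), Mpeg1 at 316 with MEHP and 229 with corn oil (0.46 ± 0.10), and Cd163, the scavenger receptor for hemoglobin, at 18.5 with MEHP and 9.88 with corn oil (0.91 ± 0.29). The receptor Csf1r (0.37 ± 0.20) and Adgre1 (−0.18 ± 0.15) were not called. The summed implied level of the list was 1714 with MEHP and 1316 with corn oil. Of 6 neutrophil, mast cell and lymphocyte markers with base means of at least 10, 0 were called, and the neutrophil genes S100a8 and S100a9 had base means of 2.39 and 3.35. All 10 endothelial and all 11 myoid markers were not called. Whether a change in cell make-up takes part in the complement and lysosomal rises was not tested.

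The cytoskeleton list had the highest number of called members, while the Sertoli and complement lists had the highest share called higher (47.4% each). Of 34 genes for actin, tubulin, intermediate filaments and their partners, 14 were higher and 1 lower (7 and 1 with the t distribution). This is 41.2% higher and 2.94% lower, against 3.52% and 2.12% over all genes. Vim, the Sertoli cell intermediate filament, stood at 1413 with MEHP and 1010 with corn oil. Nes, a filament protein of immature and regenerating cells, stood at 55.8 with MEHP and 18.0 with corn oil. The tubulin genes Tuba1c (0.78 ± 0.17), Tubb6 (1.02 ± 0.29), Tubb2a (0.67 ± 0.21) and Tuba1b (0.41 ± 0.12) rose, whereas Tubb4b, a tubulin of cilia and flagella, was at 6753 with MEHP and 7651 with corn oil (−0.18 ± 0.04). The actin genes Actb (0.14 ± 0.05) and Actg1 (0.25 ± 0.10) were not called. Outside the list Syne2, which ties the nucleus to actin, rose to 718 with MEHP against 533 with corn oil (0.43 ± 0.07, adjusted p = 5.96e-08).

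The list also holds calcium-binding proteins of the membrane. S100a11 was at 201 with MEHP and 90.5 with corn oil (1.15 ± 0.28), S100a10 at 238 with MEHP and 118 with corn oil (1.02 ± 0.23), and S100a6 at 333 with MEHP and 180 with corn oil (0.89 ± 0.18). Counted by symbol after these values were seen, 5 of 9 S100 genes and 5 of 9 annexins were higher and 0 lower (4 and 1 with the t distribution). Over all genes 3.52% were higher. S100a10 and Anxa2 (0.57 ± 0.15), whose products form a complex that binds plasminogen, rose together, as did Plat (0.96 ± 0.22), the tissue plasminogen activator.

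Junction genes rose in part. Among 26 genes of the blood-testis barrier and of other junctions, 7 were higher (26.9%, against 3.52% over all genes) and 0 lower (5 with the t distribution). They included the tight junction genes Cldn11 and F11r (0.49 ± 0.11), and the adherens and desmosomal genes Cdh2 (0.53 ± 0.12), Jup (0.43 ± 0.10), Nectin2 (0.32 ± 0.09) and Ctnna1 (0.24 ± 0.07). The gap junction gene Gja1 (−0.05 ± 0.09) and Nectin3 (−0.09 ± 0.07), the nectin of the germ cell side, were not called.

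Matrix genes also rose in part. Of 29 matrix genes 8 were higher (27.6%, against 3.52% over all genes) and 0 lower (4 with the t distribution), and 28 of the 29 had a positive effect. Bgn, a small proteoglycan, stood at 589 with MEHP and 278 with corn oil (1.08 ± 0.16, adjusted p = 9.15e-09). Col18a1 (0.62 ± 0.11), Col4a1 (0.64 ± 0.21), Lamc1 (0.56 ± 0.14) and Nid1 (0.40 ± 0.11) encode basement membrane components. Sparc, a matrix-binding glycoprotein of Sertoli and Leydig cells, stood at 4639 with MEHP and 3169 with corn oil (0.55 ± 0.10). Spp1 and the integrin subunit Itgb1 (0.39 ± 0.12) completed the 8. Spp1, with a base mean of 10.5, was at an implied 5.10 in peripubertal and 5.70 in adult rats with corn oil. It passed the filter on low values only through MEHP-treated testes, so its place in this count follows in part from that filter. The fibrillar collagen genes Col1a1 (0.50 ± 0.34) and Col3a1 (0.51 ± 0.27) were not called. Among 19 metalloproteinase and plasminogen genes 4 were higher (21.1%, against 3.52% over all genes) and 0 lower (2 with the t distribution). The 4 were Timp1, Plat, Mmp2 (0.60 ± 0.19) and Mmp11 (0.36 ± 0.11).

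Of the late germ cell markers 1 was called, lower with MEHP by a large log2 fold change. Tnp2, one of the transition proteins that replace histones in condensing spermatids, stood at an implied 38.2 with MEHP and 1819 with corn oil (−5.57 ± 1.06, adjusted p = 4.91e-05). The other elongating spermatid markers did not follow. Tnp1, the other transition protein gene, was at 0.18 ± 0.32, the protamine genes Prm2 and Prm3 were at −0.14 ± 0.12 and 0.19 ± 0.21, and 19 of the 20 markers were not called. With corn oil the implied peripubertal levels of Tnp1, Prm2 and Prm3 were 168, 162 and 175, against 1819 for Tnp2. With MEHP they were 190, 147 and 200, against 38.2 for Tnp2. In adult corn-oil testes Tnp1 and Tnp2 were at 32554 and 32386. Of the variance of Tnp2, 0.713% came from counting by the split above, so its SE reflects spread between rat libraries. Whether a few libraries of either group carry the difference in Tnp2 was not tested, since no value per library was at hand. All 19 round spermatid markers were not called, with a list median of 0.03.

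The called meiotic genes were lower. Of 29 spermatocyte markers 2 were lower (6.90%; 1 with the t distribution) and 0 higher. Over all genes 2.12% were lower, with 3.64% at base means of 200 to 1000 and 7.80% above 1000. A negative effect was seen in 25 of the 29 markers, with a list median of −0.09. Aurkc, a meiotic kinase, stood at 408 with MEHP and 516 with corn oil (−0.34 ± 0.08), and Syce1, a synaptonemal complex component, at 558 with MEHP and 654 with corn oil (−0.23 ± 0.06). Sycp1 (−0.07 ± 0.06) and Sycp3 (−0.08 ± 0.05) were not called. Among 11 spermatogonial markers Uchl1 was higher (0.23 ± 0.07).

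The lower genes were mostly small shifts of abundant transcripts. Besides Tnp2, the 9 other abundant lower genes with the smallest p were Skiv2l (−0.25 ± 0.05), an RNA helicase of the exosome pathway, Rassf1 (−0.29 ± 0.06), Strn4 (−0.21 ± 0.04), the Polycomb accessory gene Phf1 (−0.27 ± 0.05), the deacetylase complex gene Mta1 (−0.20 ± 0.04), Aamp (−0.22 ± 0.05), the HSP90 cochaperone gene Fkbp4 (−0.22 ± 0.05), Resp18 and the ubiquitin-conjugating enzyme Ube2s (−0.24 ± 0.05). All 10 abundant lower genes were also called with the t distribution, which follows in part from their choice by smallest p. Of the 297 lower genes 49 were called with it, and of the 15 largest falls, chosen by size, 7 were. Those of large size outside the germ line included the nicotinic receptor subunit Chrna4, at 10.4 with MEHP and 21.1 with corn oil (−1.02 ± 0.24), the peroxisomal oxidase Hao2 at 76.7 with MEHP and 139 with corn oil (−0.86 ± 0.20), and Smoc2, a matrix protein, at 42.4 with MEHP and 63.1 with corn oil (−0.57 ± 0.12). Heat shock and unfolded protein genes had 4 of 26 members lower (2 with the t distribution) and 0 higher. This is 15.4% lower, against 2.12% over all genes. By base mean the share lower was 0.76% at 50 to 200, 3.64% at 200 to 1000 and 7.80% above 1000. Whether the list differs from other genes of like abundance was not tested. The 4 were Hsf1 (−0.26 ± 0.07), Ddit3 (−0.30 ± 0.06), Sdf2l1 (−0.26 ± 0.06) and Dnajb11 (−0.16 ± 0.04). The chaperones Hspa5 (−0.08 ± 0.04) and Hsp90aa1 (−0.02 ± 0.04) were not called.

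**Figure D4:**
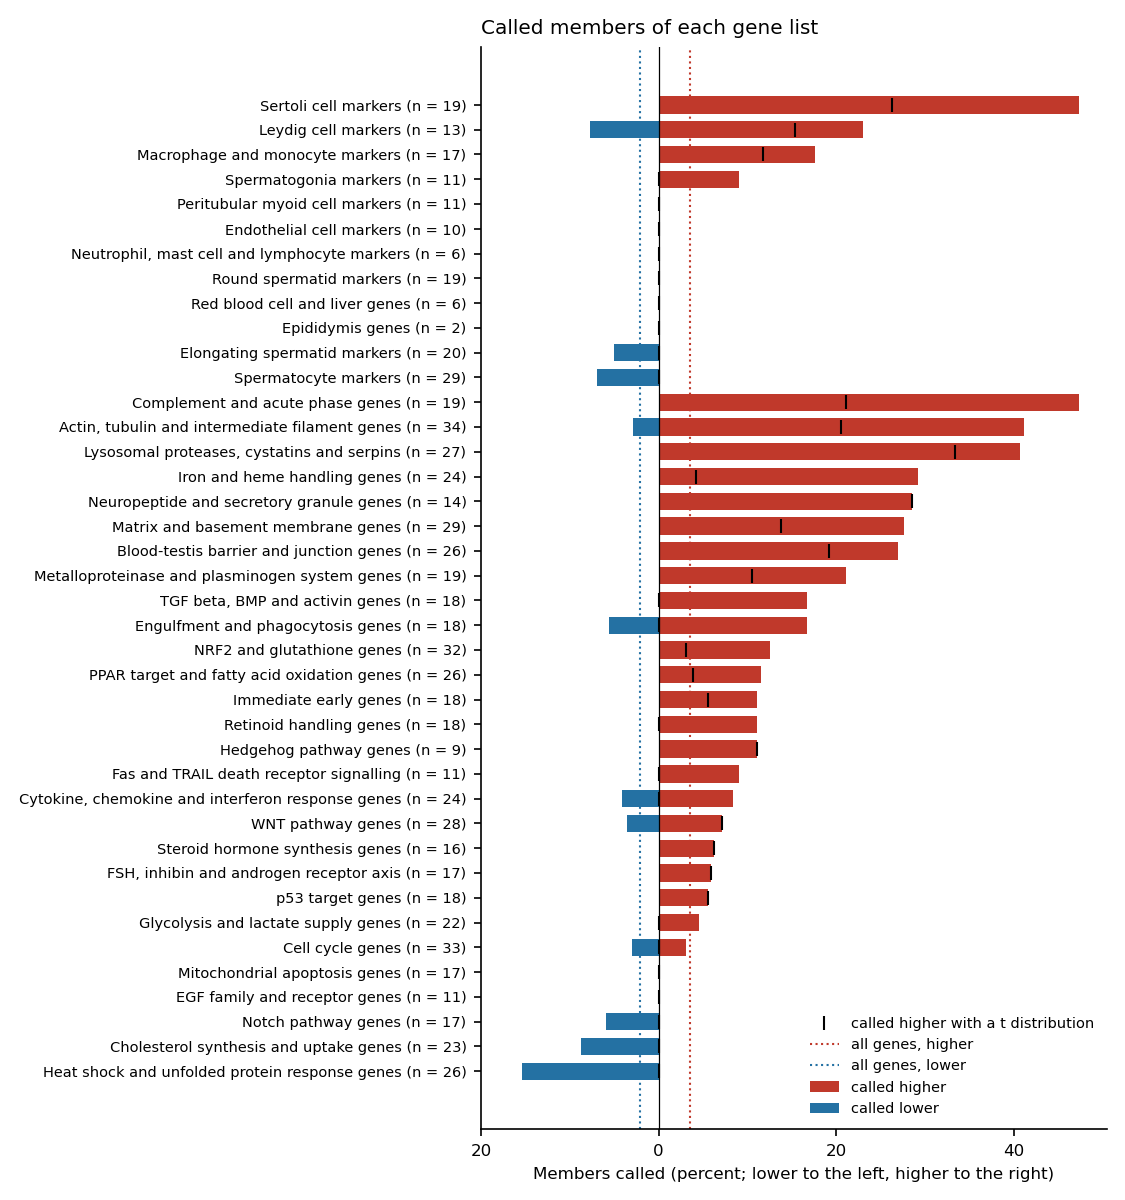
Percent of the members with base means of at least 10 that were called higher (right) or lower (left) in each gene list, cell type markers above and pathways below. Ticks give the percent called higher with a t distribution, and dotted lines mark the 3.52% and 2.12% of all genes. Sertoli and complement genes reach 47.4% higher, and the lists of spermatocytes, round spermatids and elongating spermatids have 0% higher.

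Of 16 steroid synthesis genes 1 was higher (6.25%, against 3.52% over all genes) and 0 lower. That gene was Tspo, a protein of the outer mitochondrial membrane, at 225 with MEHP and 148 with corn oil (0.61 ± 0.11). The cholesterol carrier Star was at −0.27 ± 0.24, the side-chain cleavage enzyme Cyp11a1 at −0.09 ± 0.35 and Cyp17a1 at 0.02 ± 0.34. These SEs leave room for changes of either direction. Of 13 Leydig markers 3 were higher and 1 lower (2 and 1 with the t distribution). This is 23.1% higher and 7.69% lower, against 3.52% and 2.12% over all genes. Besides Tspo the higher ones were Hsd11b1 and Ptgds (0.47 ± 0.13), and Hao2 was lower. Hsd11b1, which activates and inactivates glucocorticoids, was at 343 with MEHP and 220 with corn oil (0.65 ± 0.13).

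Peroxisome proliferator-activated receptors are activated by MEHP and drive fatty acid oxidation genes in rodent liver. In the testis 3 of 26 such genes (11.5%, against 3.52% over all genes) were higher and 0 lower (1 with the t distribution), with a list median of −0.01. Cpt1a, the enzyme that carries fatty acids to the mitochondrion, stood at 258 with MEHP and 191 with corn oil (0.44 ± 0.08, adjusted p = 2.44e-05), Ppard rose by 0.33 ± 0.09 and the uncoupling protein Ucp2 by 0.27 ± 0.09. The usual liver targets Plin2 (0.18 ± 0.08), Angptl4 (−0.22 ± 0.23) and Pdk4 (0.14 ± 0.27) were not called.

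Of the death receptor genes linked to germ cell loss after MEHP, Fas, Faslg and Tnfrsf10b had base means of 2.71, 1.84 and 2.20, under the filter of 10. Of 11 measured members of that list 1 was higher, Tnfrsf12a, the receptor for the cytokine TWEAK (1.18 ± 0.35; not with the t distribution). None of 17 mitochondrial apoptosis genes was called. Of 18 p53 target genes 1 was, the growth arrest gene Gadd45a, at 87.3 with MEHP and 55.8 with corn oil (0.65 ± 0.12).

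In the remaining lists the share called higher lay between 0% and 16.7%, against 3.52% over all genes, and rested on 4 genes or fewer in each. Glutathione and NRF2 genes had 4 of 32 higher (1 with the t distribution), among them Gstm2, a glutathione transferase, at 1679 with MEHP and 1126 with corn oil (0.58 ± 0.08), Gpx1 (0.56 ± 0.16), Pgd (0.17 ± 0.05) and the metallothionein Mt3 (0.28 ± 0.09), while Nqo1 (0.31 ± 0.15) and Hmox1 were not called. Engulfment genes had 3 of 18 higher and 1 lower (0 with the t distribution), with the receptor Axl (0.29 ± 0.08), its bridging ligand Pros1 (0.34 ± 0.11) and Anxa5 (0.41 ± 0.10) higher, Stab2 (−0.26 ± 0.07) lower, and Mertk at 0.02 ± 0.14. Ligand and receptor lists had 3 of 18 transforming growth factor beta genes higher (0 with the t distribution), 2 of 28 WNT genes higher and 1 lower, 1 of 9 hedgehog genes higher, 1 of 17 Notch genes lower and 0 of 11 epidermal growth factor genes called. Among 17 genes of the follicle-stimulating hormone, inhibin and androgen axis, the activin-binding gene Fstl3 was higher (0.44 ± 0.10). Of 24 cytokine and interferon genes, Cx3cl1 (0.92 ± 0.24) and Irf1 (0.77 ± 0.23) were higher and Il6 (−0.50 ± 0.14) lower, none of them with the t distribution. Cholesterol genes had 2 of 23 lower, Idi1 (−0.21 ± 0.06) and Insig1 (−0.16 ± 0.05), neither with the t distribution. This is 8.70%, against 2.12% over all genes and 3.64% of genes with base means of 200 to 1000. Of the immediate early genes 2 of 18 were higher, Jund (0.38 ± 0.07) and Klf6 (0.33 ± 0.11). Retinoid genes had 2 of 18 higher, among them Aldh1a1 (0.28 ± 0.08), glycolysis genes 1 of 22 higher, Gpi (0.29 ± 0.09), and cell cycle genes 1 of 33 higher, Mki67 (0.18 ± 0.06), and 1 lower, Mcm7 (−0.18 ± 0.05). None of 2 epididymal and of 6 red blood cell and liver genes was called.

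Gene families read by symbol, chosen after values were seen, showed the same contrast between rises and small falls. Of 11 cathepsin genes, all had a positive effect and 5 were higher (4 with the t distribution), Ctsa (0.47 ± 0.12) and Ctso (0.80 ± 0.24) besides those above. Of 18 genes of the rat major histocompatibility complex 5 were higher and 0 lower (3 with the t distribution), led by the class II gene RT1-Da (1.01 ± 0.25) and the class I genes RT1-CE2 (0.75 ± 0.12) and RT1-CE1 (0.65 ± 0.16). These genes are near-identical copies, so reads may be split between them. Of 18 antigen processing and interferon gamma response genes 8 were higher and 0 lower (2 with the t distribution), among them the class I light chain B2m (0.45 ± 0.14), the guanylate-binding genes Gbp4 (1.19 ± 0.25) and Gbp2 (1.01 ± 0.26), and Nmi (0.91 ± 0.22). On the lower side, 11 of 72 ciliary and flagellar genes were lower and 1 higher (0 with the t distribution), and 61 of the 72 had a negative effect. All 9 subunits of the cytosolic chaperonin had a negative effect and 4 were lower (1 with the t distribution), with Cct7 and Tcp1 at −0.18 ± 0.05 and −0.18 ± 0.06. Of 69 mitochondrial ribosomal proteins 6 were lower, and of 43 complex I genes 3 were lower (1 with the t distribution in each). Over all genes 3.52% were higher and 2.12% lower, with 3.64% lower at base means of 200 to 1000 and 7.80% above 1000. Whether the families with lower members differ from other genes of like abundance was not tested. Cytoplasmic ribosomal proteins had 1 of 71 higher and 1 lower, with a median of 0.02.

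**Figure D5:**
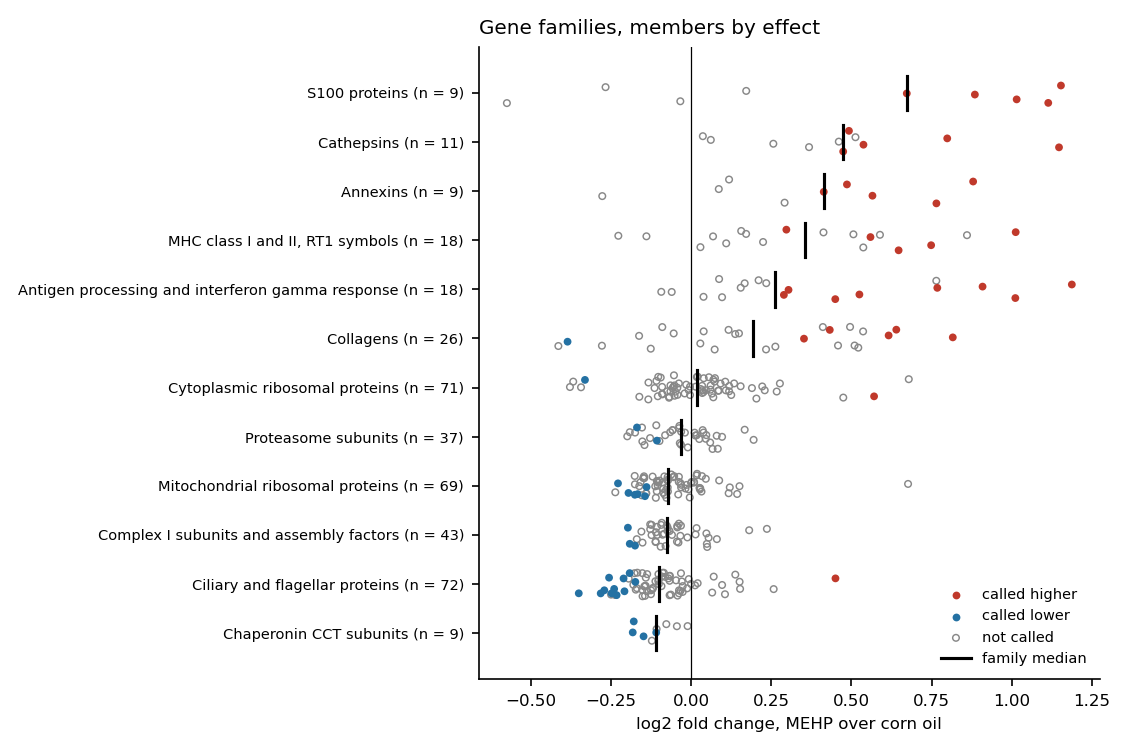
Log2 fold change of MEHP over corn oil of each member of 12 gene families (rows), with called members filled and a bar at each family median. S100 proteins, cathepsins and annexins have medians above 0.4, whereas ciliary and chaperonin genes lie in a narrow band whose medians are near −0.1.

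The authors also ran a rank test of gene ontology terms for the peripubertal rats. By the authors' deposited table, 934 of 3806 biological process, 134 of 646 cellular component and 85 of 965 molecular function terms passed an adjusted p of 0.05. Their gene statistic is not the test statistic of the effect described here, as the closing section sets out. In the authors' deposited table the extracellular space led the cellular components (adjusted p = 1.21e-23). Of its 616 matched members here, 100 were higher and 16 lower, with a median of 0.11. The collagen binding term had 12 of 53 members higher and 1 lower, and the anchoring junction term 43 of 464 higher and 0 lower. The mitochondrial protein-containing complex term (adjusted p = 5.97e-17 in the authors' deposited table) had 3 of 228 higher and 17 lower, and the cilium term 2 of 327 higher and 16 lower. Among all 13987 genes 3.52% were higher and 2.12% lower. The share lower was 3.64% at base means of 200 to 1000 and 7.80% above 1000. Whether the called members of these terms exceed other genes of like abundance was not tested.

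The same dose in adult rats gave fewer called genes. By the authors' deposited table, adults had 132 called genes among the 13987 (0.944%). Of the 15 largest peripubertal rises all 15 had a positive adult effect and 11 were called in adults, while of the 15 largest falls 9 had a negative adult effect and 0 were called. Adult and peripubertal effects share no library, and the adult SE was larger for some genes and smaller for others. For Pam it was 0.22 in adult and 0.19 in peripubertal rats, and for Cdh17 0.26 and 0.38. A call at 1 age therefore does not show a difference between ages. The difference itself, tested by the authors' age by treatment term, passed for 17 of the 13987 genes (0.122%). Besides genes given in the closing section, Glipr2 and the actin regulator Enah were among them, named after their values were seen. Glipr2 was at 0.85 ± 0.13 in peripubertal and 0.02 ± 0.12 in adult rats, and Enah at 0.30 ± 0.09 and −0.20 ± 0.09. The implied corn-oil levels of Glipr2 were 70.5 in peripubertal and 635 in adult rats, and those of Enah 292 and 1142. What these levels contribute to the differences was not tested.

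In peripubertal mice given the same dose, 0 of 17743 genes with base means of at least 10 were called in the authors' deposited table, which is 0% of them. Of the 15 largest rat rises, 7 had a mouse gene of the same symbol and a base mean reaching 10, and their mouse effects lay between −0.12 and 0.30, with 3 of 7 positive. The median SE of these 7 was 0.20, and the smallest unadjusted p was 0.247. The difference between species was not tested.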

How the data were processed

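Testis RNA of rats and mice was profiled by tag sequencing, and the submitters' processing notes name DESeq2, DESeq, Bowtie2 and FastQC without versions, and the builds mm10 and Rnor_6.0. How reads were counted and whether strand was used is not given in the sources at hand, so overlapping and near-identical genes cannot be told apart. The files hold model terms and no value per library, so depth is unknown, no count test was run, and the planned leave-one-out fits were not possible.

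In the deposited tables the base mean is a signal, the mean normalized count over all rat libraries. The log2 fold change and its SE were fitted by the authors for age, treatment and their interaction. The deposited statistic is a score equal to the fold change over its SE. The p-value and the adjusted p-value of each term were deposited by the authors, and their gene ontology tables give a p-value per term. Per the files' own headers the other columns of these tables are numbers of genes.

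The peripubertal effect is the treatment term plus the age by treatment term, and its variance is the squared SE of the second less that of the first. A two-sided Wald test (normal distribution, scipy 1.17.1 in Python 3.11.15) was adjusted by Benjamini-Hochberg over 21351 genes, with calls at 0.05 among 13987 genes with base means of at least 10. On simulated counts of this comparison, the derived effect and SE differed from a direct contrast by over 0.001 in 0 of 300 genes. Implied levels weight the fitted terms by the group sizes. Alternatives were a t distribution, Holm, other sets of genes for the adjustment, other filters, the whole SE of the age by treatment term, centring, and a size threshold of 1.

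The genes named are the 15 largest rises and 15 largest falls among called genes with established symbols, the 10 higher and 10 lower genes of smallest p with base means of at least 500, and every called member of 40 gene lists. Members that were not called are given as examples, and genes outside this rule are marked as named or chosen after their values were seen. A few of these genes are not reported here. The members and lists were chosen with earlier results of these data known. Promoter sequences are RefSeq's on GRCr8, used for their letters and not joined to coordinates of another build.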

Additional observations from a re-analysis of the deposited data

Results flagged for a closer look

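In 4 of the named genes the effect of MEHP differed between peripubertal and adult rats by the age by treatment term of the authors' deposited table (adjusted p under 0.05, Wald test). The differences below are peripubertal minus adult log2 fold changes. Cdh17 differed by 2.79 ± 0.46 (adjusted p = 2.41e-05), with an effect of 3.03 in peripubertal and 0.24 in adult rats. Phactr1, an actin and phosphatase regulator, differed by 0.76 ± 0.16 (adjusted p = 0.00569), with 0.61 in peripubertal and −0.14 in adult rats. Syne2 differed by 0.44 ± 0.10 (adjusted p = 0.0163), with 0.43 in peripubertal and −0.01 in adult rats. Wnt4 differed by −2.84 ± 0.65 (adjusted p = 0.0163), with 1.80 in peripubertal and 4.63 in adult rats. The implied levels of Cdh17 were 2.53 with corn oil and 20.7 with MEHP in peripubertal rats, and 64.0 and 75.7 in adult rats. Its peripubertal effect thus rests on a corn-oil level under 3 counts. The implied corn-oil levels of Wnt4 were 51.8 in peripubertal and 3.22 in adult rats. Those of Phactr1 were 86.2 in peripubertal and 1003 in adult rats, and those of Syne2 were 533 and 545. The part of these levels in the differences was not tested.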

How the results depend on the processing

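No paired analysis was possible because the files used here hold no value per library, although the MEHP and corn-oil libraries carry the same numbers 1 to 7. Leaving out each replicate was not run for the same reason. The counts of 493 higher and 297 lower genes stayed within 1.5 times when adjusted over genes with base means of at least 10 (602 and 397) or over genes with an adjusted p in the authors' deposited age by treatment table (596 and 393), without a filter (515 and 298), at base means of at least 50 (388 and 287) and after centring on the median of those genes (520 and 224). They moved further with the t distribution (189 and 49), with Holm adjustment (87 and 10), with a size threshold of 1 on the log2 scale (43 and 2) and with the whole SE of the age by treatment term, an upper bound of the SE (18 and 0 by the Wald test, with 803 genes at an unadjusted p under 0.05, 333 of them lower). The split between higher and lower calls, 62.4% higher as reported, was 79.4% with the t distribution. Of the genes in any list, 99 were higher and 16 lower, against 47 and 6 with the t distribution and 81 and 16 at base means of at least 50. Of 146 named genes, 77 kept their call with the t distribution, 45 with Holm adjustment and 13 with the upper bound of the SE. These settings alter the test and keep the log2 fold change, so they could not change a direction. Implied corn-oil levels under 20 normalized counts limit Vgf, Calca, Cdh17 and others, in all 21 of the 43 genes higher by at least 1.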

Other observations

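The gene statistic behind the authors' gene ontology tables for peripubertal rats was compared with the deposited term tables. In all 9019 genes that matched by a unique symbol, it equalled the test statistic of the adult treatment term plus that of the age by treatment term, within 1e-09. It equalled the effect over its SE, as derived here, in 0 of the 9019. Adding 2 statistics is not the same as adding 2 effects, because each is divided by its own SE. Among 464 called genes in these tables the deposited statistic was a median of 0.68 times the derived one (percentiles 10 and 90 at 0.56 and 0.84) and had the same sign in each. Among all 6440 matched genes with base means of at least 10, 443 had the opposite sign. How far the terms past the threshold would change with the derived statistic was not tested.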
